A study of Mus musculus with 2 samples.

Results

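The Dlk1-Dio3 domain is an imprinted stretch of mouse chromosome 12 that holds protein-coding genes, long noncoding RNAs, small nucleolar RNAs and a dense array of microRNAs. Its members were taken as all genes lying from Dlk1 to Dio3 in a table of mouse genes (assembly GRCm38.p6) that had a probeset assigned to them alone. Of 103 genes in that stretch, 48 were measured in this way, out of 19936 genes measured on the arrays. They comprise 3 protein-coding genes (Dlk1, Rtl1 and Dio3), 2 long noncoding RNAs (Meg3 and Rian), 3 small nucleolar RNAs and 40 microRNA genes, each with 1 probeset. Mirg was read only by a probeset it shares with Mir410, and it is described apart.

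Each array held RNA of i-OSKM-ESC, mouse embryonic stem cells of strain 129 made from the KH2 line, which carry doxycycline-inducible copies of Klf4, c-Myc, Oct4 and a Sox2 with an epitope tag. Cells of both conditions carried these inducible genes and were plated on gelatin. One culture received doxycycline, the drug that switches the inducible genes on, at 4 µg/mL and was harvested 24 hours later, and the other was refed without it. The transcripts of these cultures were hybridised to whole-transcript arrays, 1 per condition. There are no replicates, so no difference below has an error between cultures, no test between the conditions was possible, and precision is limited by having so few arrays. No culture of cells lacking the inducible genes was analysed with doxycycline, so an effect of the drug and an effect of the factors cannot be told apart.

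Genes of the domain are expressed according to the parent of origin. Dlk1, Rtl1 and Dio3 are transcribed from the paternal chromosome, and Meg3, Rian, Mirg and the small RNAs embedded in or near them are transcribed from the maternal one, in the same orientation. Methylation of a control region between Dlk1 and Meg3 on the paternal chromosome keeps both sets apart, and silencing of Meg3 and its downstream RNAs is a known defect of some mouse induced pluripotent stem cell lines. MicroRNAs are cut from hairpins in longer transcripts, and the seed, bases 2 to 8 of the mature strand, largely sets which messenger RNAs they pair with.

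The microRNA hairpins of the domain fell into sets by position, and mature sequences stand here for those on which the results turn. RefSeq hairpins on build GRCm38.p6 were found for 39 of the 40 measured microRNA genes, all on the plus strand, and mature strands for 40 of 40. The first lines are mature strands of microRNAs that differed at least 2-fold, with less signal in the plus doxycycline array, and carry the seed in capitals.
miR-382-5p: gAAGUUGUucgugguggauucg
miR-382-3p: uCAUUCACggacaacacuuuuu
miR-377-3p: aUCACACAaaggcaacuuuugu
miR-380-3p: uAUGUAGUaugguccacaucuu
miR-379-3p: uAUGUAACaugguccacuaacu
miR-411-3p: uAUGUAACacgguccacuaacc
miR-379-5p: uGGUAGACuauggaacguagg
miR-411-5p: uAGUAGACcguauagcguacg
miR-329-3p: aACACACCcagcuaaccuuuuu
miR-323-3p: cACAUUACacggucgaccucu
miR-300-3p: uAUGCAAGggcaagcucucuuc
miR-381-3p: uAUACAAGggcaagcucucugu
The last line, miR-381-3p, is set beside miR-300-3p because their mature strands are nearly alike after the seed and its gene lay just under 2-fold. A second set comes from hairpins that lie opposite Rtl1, where the levels of both arrays were close.
miR-431-5p: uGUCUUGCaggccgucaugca
miR-127-3p: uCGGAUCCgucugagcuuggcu
miR-434-3p: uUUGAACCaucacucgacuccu
miR-136-5p: aCUCCAUUuguuuugaugaugg
Among the 76 RefSeq mature strands of the 40 measured genes there are 74 different seeds, so few of these strands share one. Those that do are miR-379-3p with miR-411-3p, which share AUGUAAC, and miR-376c-5p with miR-376b-5p, which share UGGAUAU. The stretch holds 61 microRNA genes, and RefSeq does not list both strands for Mir376c, Mir487b, Mir539 and Mir485. Seeds shared by strands not listed here were not counted. Outside the domain, 0 microRNA genes with RefSeq sequences carry either of these seeds.

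The induced factors give a limited check of the array labels. Pou5f1, which encodes Oct4, had a log2 level of 12.46 in the array labelled plus doxycycline and 12.05 in the array labelled no doxycycline. The pair of levels was 9.34 and 8.91 for Klf4 and 10.42 and 10.07 for Myc in the same order of arrays. Sox2 went against its label, with 10.88 in the plus doxycycline array and 11.89 in the no doxycycline array. The sources used here do not say whether these probesets read the inducible copies, so every direction below rests on the labels. Of 8 markers of embryonic stem cells, 8 were above the median of all values. Of these, 7 were lower in the plus doxycycline array, Sox2 among them, and the median difference of the 8 was -0.48. Among all genes whose higher value reached the median of all values, 55.5% were lower, with a median difference of -0.03. Over the 2 arrays, levels of all genes correlated with a Pearson r of 0.989, across genes that are not independent replicates.

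Levels are log2 values made with RMA, a procedure that corrects background, equalises arrays and summarises probes, and a difference is the plus doxycycline value minus the no doxycycline value. A gene is called lower or higher if it differs at least 2-fold and its higher value reaches the median of all values, 6.48. The domain was chosen by measured values, the lower Meg3 and Rian levels of this same contrast. Its counts are therefore descriptions, set beside the counts over all genes and not tested. In RNA of whole cultures, fewer cells expressing a gene and less RNA per cell cannot be told apart.

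Noncoding RNAs of the domain were mostly lower with doxycycline, going by the array labels, while its 3 protein-coding genes had positive differences under 2-fold, with 1 of the 3 passing the filter on low values. Of the 48 members, 22 passed the filter on low values, 7 of these were called lower and 0 were called higher. Of the 7, Rian, Mir382, Mir377, Mir329 and Mir323 passed only through their no doxycycline value. Over all 11191 genes that passed, 0.768% were called lower and 0.92% higher, 1.69% in either direction. With no filter, 11 of the 48 members were at least 2-fold lower, against 0.472% of all genes, and 0 were at least 2-fold higher, against 0.552% of all genes. The 11 members make up 22.9% of the domain's measured genes and 11.7% of the 94 genes that were 2-fold lower on the arrays. Negative differences were found for 39 of the 45 noncoding members, against 48.3% of all genes. The median difference of the 45 was -0.59, against 0.01 over all genes. Meg3 and Rian, on whose levels the domain was chosen, are counted among the 7, the 11 and the 39. The closest values to the 2-fold line were those of Mir323 at -1.06 inside it and of Mir381 at -0.997 outside it.

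**Figure D1:**
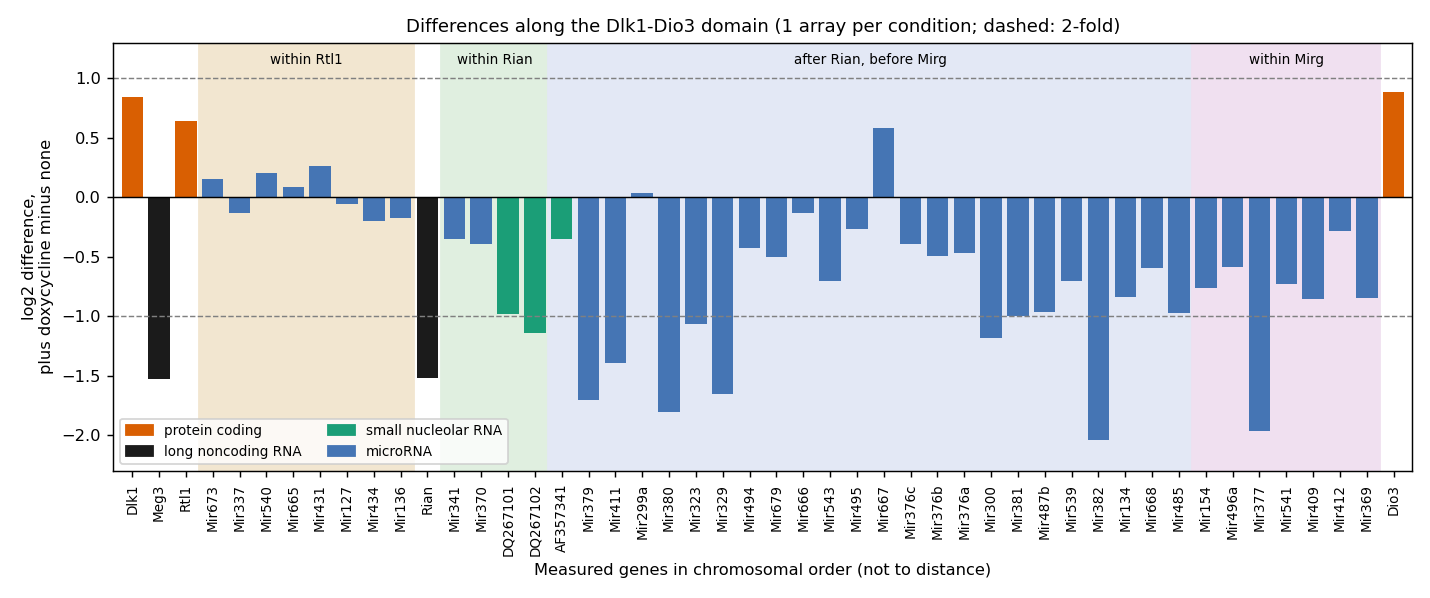
Bars give the log2 difference (plus doxycycline minus no doxycycline, 1 array each) of the 48 measured genes from Dlk1 to Dio3, in chromosomal order but not to distance, coloured by RNA class. Shading marks genes inside the annotated spans of Rtl1, Rian and Mirg or between the spans of Rian and Mirg. The 3 protein-coding genes are above 0, the 8 microRNAs within Rtl1 lie between -0.20 and 0.26, and most bars from Rian onward are below 0, down to -2.04 for Mir382.

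The 3 protein-coding genes are those read from the paternal chromosome. Dlk1, a membrane protein with epidermal growth factor-like repeats related to Notch ligands, had a level of 8.67 in the plus doxycycline array and 7.82 in the no doxycycline array, 1.80-fold higher with the drug. It was the brightest of the 3, and both of its values were above the median of all values. Rtl1, a retrotransposon-derived gene needed in the placenta, had 5.84 in the plus doxycycline array and 5.19 in the no doxycycline array, a difference of 0.64. Dio3, the deiodinase that inactivates thyroid hormone, had 5.66 with doxycycline and 4.77 without it, a difference of 0.89. Rtl1 and Dio3 stayed below the filter in both arrays, for which no detection call is at hand, and no coding member reached 2-fold. Among the 20 genes flanking the domain 15 were positive, up to 0.83 for Mir345, a microRNA gene. The differences of Dlk1 (0.85) and Dio3 were slightly above that value. The largest among flanking protein-coding genes were 0.71 for 1700001K19Rik, below the filter, and 0.54 for Degs2, also below it. Among those that passed, the largest was 0.46, for Slc25a29. With 32 added to every linear value, which damps differences of dim probesets, the difference of Rtl1 was 0.38 and that of Dio3 0.48.

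Dlk1 is also a gene of fibroblasts and other stromal cells, so markers of such cells were read beside it. Of 10 fibroblast or feeder markers, 7 were higher in the plus doxycycline array and 0 reached 2-fold, with a median difference of 0.26. Their summed linear level was 994 in the plus doxycycline array and 835 in the no doxycycline array. Of the 10, 6 passed the filter. The matrix genes Col1a1, Col1a2 and Fbln2 were among these, with 7.61, 7.16 and 7.59 in the plus doxycycline array and 7.16, 6.66 and 7.07 in the no doxycycline array. Thy1 also passed, with a difference of 0.27. Col3a1, another matrix gene, and Pdgfrb passed with negative differences of -0.07 and -0.25. S100a4, below the filter, had -0.42. The matrix genes Lum, Dcn and Postn were below the filter in both arrays, with levels between 3.38 and 4.81. Sums for primitive endoderm markers were 775 with doxycycline and 794 without it, those for trophoblast 417 and 410, those for mesoderm 417 and 399, and those for neural markers 1219 and 779, in the same order. In the neural list the higher sum came with Tubb3 and Map2, which were 2.41-fold and 2.52-fold higher. The part of any such cells in the values of the domain was not tested.

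Meg3 and Rian, the long noncoding RNAs read from the maternal chromosome, were lower by almost the same amount. Meg3, a nuclear RNA that starts close to the control region, had a level of 8.08 in the plus doxycycline array and 9.60 in the no doxycycline array, a 2.88-fold lower level. Rian, whose introns hold small nucleolar RNAs, had 6.06 with doxycycline and 7.57 without it, a 2.86-fold lower level. Only the no doxycycline value of Rian lay above the filter. With 32 added in the same way, the differences were -1.42 for Meg3 and -1.17 for Rian, both still past 2-fold. A second probeset, shared by Rian and the small nucleolar RNA AF357355, had 8.03 with doxycycline and 9.56 without it, a difference of -1.53 close to that of Rian's own. Mirg, the host transcript of the microRNAs near the end of the domain, shares its probeset with Mir410, and this probeset had 4.95 with doxycycline and 6.58 without it, a difference of -1.63. Probesets at Meg3, Rian and Mirg, spread along the domain, had differences between -1.52 and -1.63. The levels of Meg3 and Rian were used to choose the domain. The probeset shared by Mirg and Mir410 was not named in that choice, but earlier results of these data were known when it was made. That probeset is therefore no independent support, and only its no doxycycline value lay above the filter.

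All 3 small nucleolar RNAs of the domain with probesets of their own had lower values in the plus doxycycline array. Small nucleolar RNAs of this domain are of the box C/D kind and lack known ribosomal targets. DQ267102, within Rian, was the brightest member of the domain in both arrays, at 10.30 with doxycycline and 11.44 without it, 2.20-fold lower. DQ267101, also within Rian, had 5.20 with doxycycline and 6.18 without it, a difference of -0.98, and AF357341, which lies past Rian's end in the table, had 4.72 and 5.07, in the same order of arrays. Both of these were below the filter. Among 51 small nucleolar RNA genes outside the domain, the median difference was -0.18, 38 were negative and 0 were 2-fold lower, so a negative sign by itself was common in this class. The lowest of the 51 had -0.59.

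The microRNAs split by position. The 8 measured microRNA genes within the span of Rtl1 (Mir673, Mir337, Mir540, Mir665, Mir431, Mir127, Mir434 and Mir136) differed little between the arrays, with 4 positive and 4 negative differences and a median of 0.01. From Mir379 to Mir369, 28 of 30 microRNA genes were lower in the plus doxycycline array, with a median of -0.74, and 8 were at least 2-fold lower. Mir341 and Mir370, within Rian and between these blocks, had -0.35 and -0.39. MicroRNA genes outside the domain, 257 in all, had a median of 0.01. Of these, 48.6% were negative and 0.778% were at least 2-fold lower. The split was noticed in these values, and with 1 array per condition it could not be tested.

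**Figure D2:**
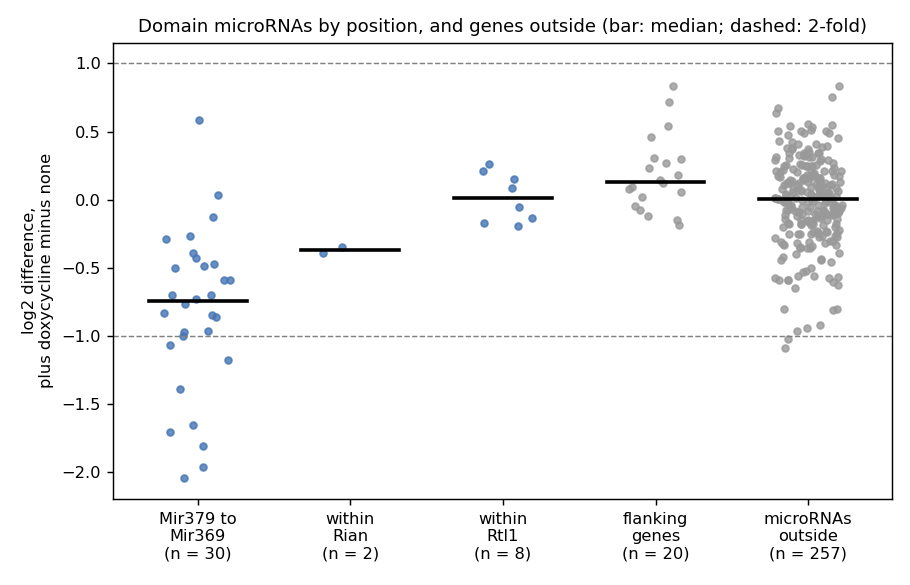
Points give the log2 difference (plus doxycycline minus no doxycycline) of single genes, and bars their medians, for domain microRNAs from Mir379 to Mir369, within Rian and within Rtl1, for the 20 flanking genes and for 257 microRNA genes outside the domain. The first group has a median of -0.74, and the microRNAs within Rtl1 and those outside the domain have a median of 0.01 each.

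MicroRNAs opposite Rtl1 are made from an antisense transcript, and Mir127, Mir136, Mir431 and Mir434 are known to pair with Rtl1 messenger RNA along their whole length. Mir431 had a level of 6.86 with doxycycline and 6.60 without it, Mir127 had 5.92 and 5.98, Mir434 had 3.56 and 3.76, and Mir136 had 3.96 and 4.13, in the same order. The largest positive difference of the block was 0.26, for Mir431, and the largest negative one -0.20, for Mir434. Mir673, Mir337, Mir540 and Mir665 had levels between 6.49 and 7.32 with doxycycline and between 6.62 and 7.17 without it, all above the filter. A probeset shared by Mir433 of this block and the overlapping transcript 6430411K18Rik had 5.82 with doxycycline and 6.25 without it, a difference of -0.43. In the order of genes this block lies between Meg3 and Rian, both of which were more than 2-fold lower.

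The long cluster from Mir379 to Mir369 held the largest differences of the domain. Mir382 had a level of 5.59 in the plus doxycycline array and 7.64 in the no doxycycline array, 4.12-fold lower. Mir377 had 5.31 with doxycycline and 7.27 without it, 3.90-fold lower, and Mir329 had 5.86 and 7.51, 3.14-fold lower. Mir323, which passed the filter narrowly, had 5.43 with doxycycline and 6.49 without it, 2.09-fold lower. With 32 added to every linear value Mir323 had -0.70 and was no longer called, which left 6 called members, while Mir382 had -1.53, Mir377 -1.38 and Mir329 -1.25. In these 4 the no doxycycline level was above the median of all values and the plus doxycycline level below it.

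Below the filter, 4 more microRNAs of the cluster differed at least 2-fold. Mir380 had 4.43 with doxycycline and 6.23 without it, a difference of -1.81, and Mir379 had 3.59 and 5.29, a difference of -1.70. Mir411 had 4.37 with doxycycline and 5.77 without it, and Mir300 had 4.88 and 6.06. With 32 added, Mir380 had -1.003 and stayed at 2-fold, but Mir379 had -0.69, Mir411 -0.71 and Mir300 -0.68. Mir379 and Mir411, whose 3-prime strands share a seed, lie next to each other at the start of the cluster, and their differences were -1.70 and -1.39. The other pair of genes whose listed strands share a seed, Mir376c and Mir376b, had smaller differences of -0.39 and -0.49. Their levels with doxycycline, 3.03 and 3.86, lie near the bottom of the scale. Mir300 and Mir381, nearly alike in their 3-prime strands, had -1.18 and -0.997, and the levels of Mir381 were 3.74 with doxycycline and 4.73 without it.

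The other cluster members that passed the filter differed less than 2-fold. Mir134, which is known to repress Nanog, Pou5f1 and Sox2 when mouse embryonic stem cells differentiate, had 7.63 with doxycycline and 8.46 without it, a difference of -0.83. Mir668 had 7.13 with doxycycline and 7.72 without it, a difference of -0.59, and Mir679 had 7.20 and 7.70, a difference of -0.50. Mir485, known for its role at synapses, had 5.82 and 6.80, a difference of -0.97 just short of 2-fold. Mir494 and Mir666, which also passed, had -0.43 and -0.13. Mir485 and Mir494 passed only through their no doxycycline value. Mir667 was the exception, with 8.62 in the plus doxycycline array and 8.04 in the no doxycycline array, a difference of 0.58. Mir299a was the other positive one, at 3.67 and 3.64, both near the bottom of the scale.

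The remaining cluster members were dim in both arrays. Mir487b (-0.96), Mir409 (-0.86), Mir369 (-0.85), Mir154 (-0.76), Mir541 (-0.73), Mir539 (-0.70), Mir543 (-0.70) and Mir496a (-0.59) had levels between 4.38 and 5.33 with doxycycline and between 4.96 and 6.19 without it. Mir376a (-0.47), Mir412 (-0.29) and Mir495 (-0.27) differed less. Adding 32 to every linear value moved the median of the 30 genes to -0.40 and left 4 of them at least 2-fold lower. The 28 negative signs cannot change with this addition. The 8 microRNAs within Rtl1 kept a median of 0.01 with this addition.

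**Figure D3:**
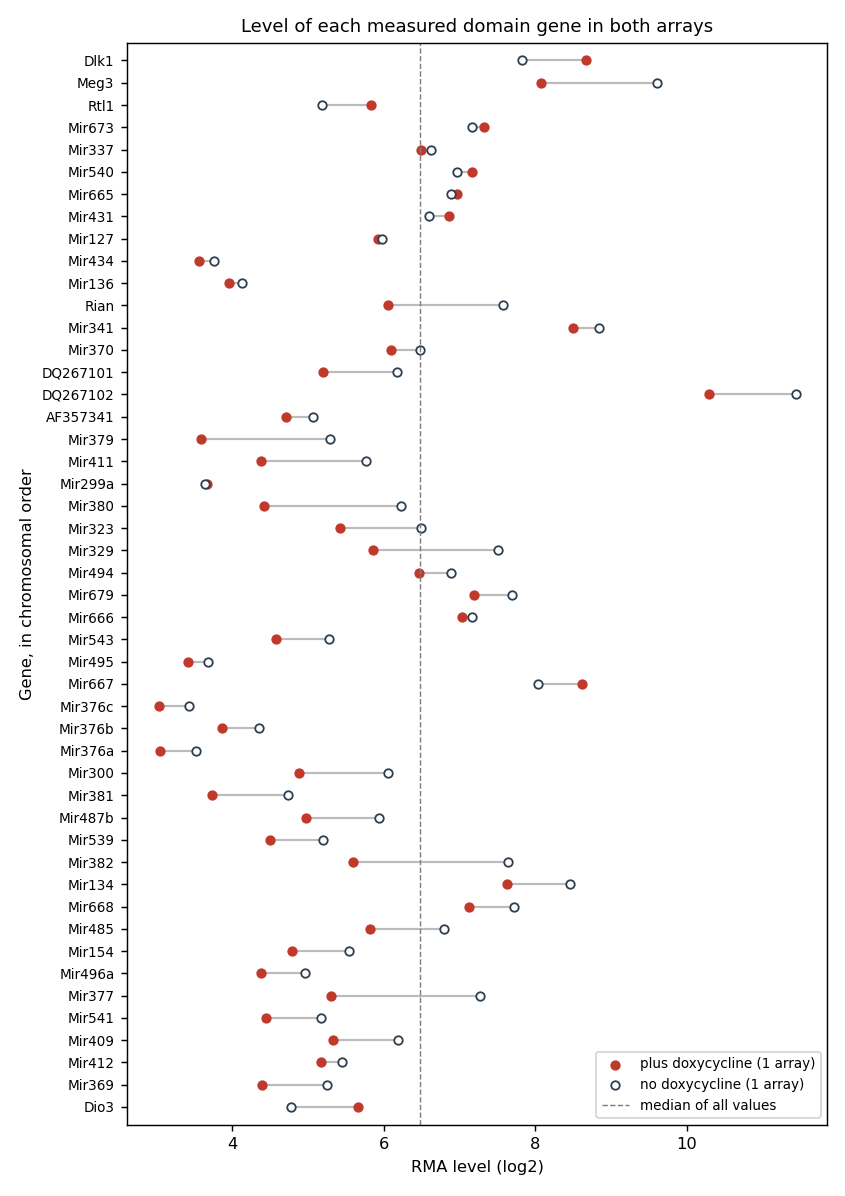
Each row is a measured gene of the domain in chromosomal order from Dlk1 (top) to Dio3 (bottom), with its RMA level (log2) in the plus doxycycline array as a filled point and in the no doxycycline array as an open point. The dashed line is the median of all values, 6.48. Gaps are widest for Mir382, Mir377, Mir380 and Mir379, and DQ267102 is the brightest gene.

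Base composition of the hairpins moved with these values. Over the 39 domain microRNAs with a hairpin in RefSeq, the G+C content of the hairpin ran from 29.1% to 62.0%, and its Pearson correlation with the level was 0.81 in the plus doxycycline array and 0.67 in the no doxycycline array. With the difference the correlation was 0.41, and over 220 microRNA genes outside the domain it was also 0.41. Within the 31 domain microRNAs from Mir341 onward it was 0.21, and Spearman's rho was 0.05. These are descriptions across probesets that share their 2 arrays. The microRNAs within Rtl1 had a median hairpin G+C of 55.2%, against 42.3% for those from Mir379 onward, so position and composition overlap, and the part of composition in the differences was not tested. For the microRNAs from Mir341 onward, the median difference was -0.73 for 19 hairpins with at most 45.1% G+C and -0.71 for 12 richer ones. Outside the domain the medians were -0.11 for 79 hairpins up to that content and 0.10 for 141 richer ones. Mir434 and Mir136, the block's hairpins lowest in G+C at 45.7% and 40.3%, had -0.20 and -0.17, at levels no higher than 4.13.

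**Figure D4:**
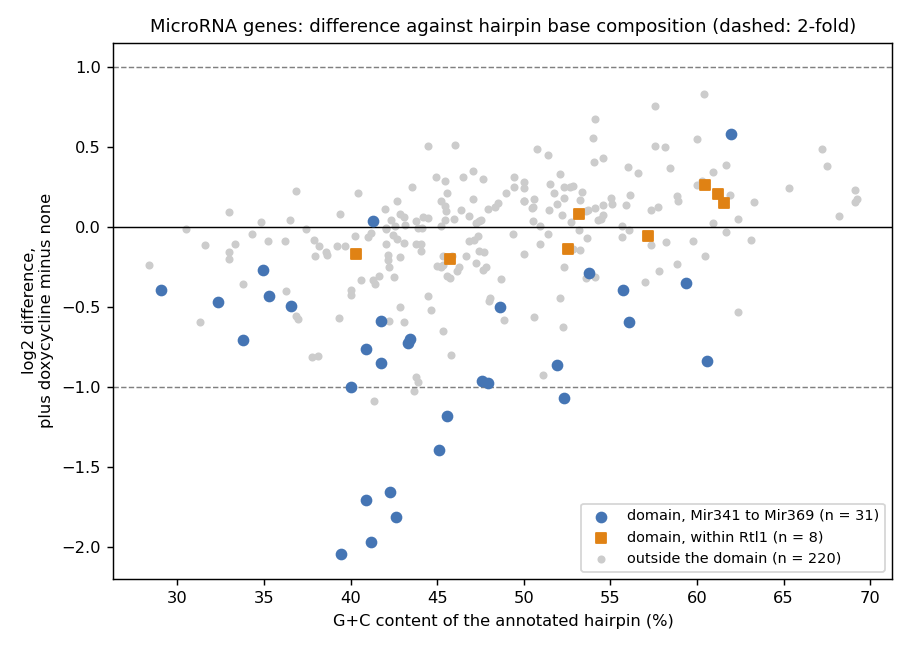
The log2 difference (plus doxycycline minus no doxycycline) of microRNA genes is plotted against the G+C content of their annotated hairpin in percent, for 31 domain microRNAs from Mir341 to Mir369, 8 within Rtl1 and 220 outside the domain. The deepest differences, from -1.39 down to -2.04, are those of hairpins with 39.5% to 45.1% G+C, and microRNAs within Rtl1 lie among the genes outside the domain.

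To show what such a probeset's gene looks like, the hairpin of Mir382, with the largest difference of the domain, is printed beside that of Mir431, the block's most positive one, with mature strands in capitals.
Mir382: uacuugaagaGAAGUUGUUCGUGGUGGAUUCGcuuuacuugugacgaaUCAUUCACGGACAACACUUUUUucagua
Mir431: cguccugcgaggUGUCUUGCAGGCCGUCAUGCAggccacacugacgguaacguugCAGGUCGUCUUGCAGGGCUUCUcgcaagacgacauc
Mir382 lies at chr12:109733771-109733846 and Mir431 at chr12:109590447-109590537 on the plus strand of GRCm38.p6. The G+C content is 39.5% over 76 bases for Mir382 and 60.4% over 91 bases for Mir431. Whether the probesets read the mature strand, the hairpin or the host transcript around it is not stated in the sources at hand, so a lower value is a lower signal of the microRNA gene and not a measured loss of the mature microRNA.

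Promoter windows of Dlk1 and of the first of 2 RefSeq starts of Meg3 are given because these neighbours, read from opposite parental chromosomes, differed in opposite directions. Each runs from 250 bases before to 50 after a RefSeq start, on the plus strand of GRCm38.p6, at chr12:109540746-109541045 for Meg3 and chr12:109452573-109452872 for Dlk1. Capitals mark matches, on either strand, to CCACCC, a core of Klf4 sites, or to TGCCGC, a core of Zfp57 sites.
Meg3: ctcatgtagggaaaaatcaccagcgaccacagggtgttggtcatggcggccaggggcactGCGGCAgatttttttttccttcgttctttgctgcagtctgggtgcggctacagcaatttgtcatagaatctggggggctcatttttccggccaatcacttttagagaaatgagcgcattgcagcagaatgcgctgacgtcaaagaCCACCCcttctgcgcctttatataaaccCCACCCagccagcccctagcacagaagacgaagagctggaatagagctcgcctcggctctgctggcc
Dlk1: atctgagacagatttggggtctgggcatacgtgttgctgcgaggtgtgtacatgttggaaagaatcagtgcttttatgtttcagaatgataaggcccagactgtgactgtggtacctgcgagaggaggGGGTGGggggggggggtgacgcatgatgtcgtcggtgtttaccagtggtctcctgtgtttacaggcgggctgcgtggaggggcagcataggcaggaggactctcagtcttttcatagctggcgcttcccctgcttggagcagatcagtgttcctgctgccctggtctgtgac
The first Meg3 window held 2 matches to the Klf4 core and 1 to the Zfp57 core, and the Dlk1 window 1 and 0. Among 32851 promoter windows of that length, 31.5% held the Klf4 core and 11.6% the Zfp57 core. Neither window held CACGTG, the E-box of Myc, ATTTGCAT, the octamer of Oct4, or ACAATG, a core of Sox2 sites, which occur in 7.15%, 1.74% and 12.6% of windows. CpG dinucleotides numbered 13 in this Meg3 window and 9 in the Dlk1 window, against a median of 7 over all windows. The window of the second Meg3 start, at chr12:109545148-109545447 on the same strand and not printed, differed from the first, with 7 matches to the Klf4 core (some overlapping), 0 to the Zfp57 core, 0 to the other 3 motifs and 1 CpG. These matches are letters in a window and say nothing of binding.

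The nearest genes on either side of the domain all differed less than 2-fold. The 10 nearest measured genes before Dlk1 had differences between -0.18 and 0.83 with a median of 0.22, and the 10 after Dio3 had differences between -0.07 and 0.71 with a median of 0.11. None of these 20 reached 2-fold in either direction, with or without the filter. Begain, the nearest before Dlk1, had 5.97 with doxycycline and 6.09 without it, and Ppp2r5c, the nearest after Dio3, had 9.55 and 9.25.

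Regulators that set or keep the imprint of the domain were read from a list of 22 genes, of which 21 passed the filter, 2 were called lower and 0 higher, against 0.768% and 0.92% of all genes that passed. The list's median difference was -0.09 and 16 of 22 were negative, against 55.5% of all genes that passed and 48.3% of all genes. Dnmt3a, a de novo DNA methyltransferase, had 8.08 in the plus doxycycline array and 9.96 in the no doxycycline array, 3.68-fold lower. Dnmt3l, its cofactor, had 8.50 with doxycycline and 9.80 without it, 2.46-fold lower. Jarid2, a Polycomb subunit, had -0.93 and Aff3, which in mouse binds the control region, had -0.68. Zfp57 and Trim28, which protect the methylated control region, had -0.28 and -0.53. In the other direction, Tet2 had 0.64, Kdm1b 0.28 and Ezh2 0.23, and Dnmt1 and Uhrf1 had -0.09 and 0.01. Dppa3, known to protect Meg3 from gaining methylation during reprogramming in mouse cells, was dim in both arrays, at 4.73 with doxycycline and 4.80 without it.

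Machinery that makes or uses the small RNAs was read from 2 lists. Of 13 listed genes that make or bind microRNAs, 0 of the 11 that passed were called, against 1.69% of all genes that passed, so the count says nothing particular to them. Their median difference was -0.03. Dgcr8, the partner of Drosha, had -0.51, Ago1 -0.25, Ago3 0.23 and Ago4 0.22, and Drosha and Dicer1, the enzymes that cut the hairpins, had 0.0011 and 0.17. The 4 measured proteins of box C/D particles had a median of 0.07, with Fbl at 0.14, Nop58 at -0.13, Snu13 at 0.10 and Nop56 at 0.03, and 0 of 4 were called, against the same 1.69%.

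Pathway genes around the coding members were read in the same way. In the list of 13 Dlk1 and Notch genes 0 of the 10 that passed were called, against 1.69% of all genes that passed, and the median was 0.10. Named from it were the Notch targets Hes1 at 0.95 and Hey1 at 0.57, the ligand Jag2 at 0.52, and Rbpj, the DNA-binding effector of Notch, at -0.98. The value of Rbpj rests on its choice of probesets, since the brightest of them alone gave -0.49. Among 6 measured thyroid hormone genes, 0 of the 3 that passed were called, too few to read against that share. The transporter Slc16a10 had 0.48, the receptor Thra 0.36, the binding protein Crym 0.30 and the receptor Thrb 0.06.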

How the data were processed

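Transcripts of i-OSKM-ESC were measured on 2 arrays, 1 with doxycycline and 1 without. The authors deposited 1 log2 value per probeset, made with Affymetrix Expression Console and RMA per the submitters' processing notes. The version and settings, like the build behind the probesets, were not given in the sources used here. RMA equalises the arrays, so a shift shared by most transcripts is not visible, and no detection call is given. Of 35556 probesets, the platform annotation assigns 21789 to 1 gene, 1621 to several and leaves 12146 unlisted. Of the 21789, 21698 were matched to the mouse gene table by gene identifier, 68 by symbol and 2 by accession. A gene's value was the mean of its single-gene probesets. No build is named with the arrays, so the table gave order and spans, and printed coordinates belong to RefSeq sequences of GRCm38.p6.

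No test was fitted, since each condition has 1 array. The fold rule and the trend removal were tested on simulated data. Changes were planted there only in genes well above the filter, so this check does not cover dim members. The domain, lists, hosts and rules were chosen with earlier results of these data known, and the split of microRNAs by position was noticed in the values. Named genes were all coding and long noncoding members, called members, the 5 brightest and 5 most different of each small RNA class, list genes called or among the 4 most different, nearest neighbours and members on each side of the 2-fold line. The other members, the fibroblast markers, Drosha, Dicer1, Tubb3 and Map2 were named after their values were seen. So were Zfp57, Trim28, Dppa3, Tet2, Kdm1b, Ezh2, Dnmt1, Uhrf1 and the flanking genes other than the nearest. Alternatives were 2 other filters, loess removal of the trend on mean level, quantile normalization, an addition of 32 to linear values, the brightest probeset, inclusion of shared probesets and a 1.5-fold threshold. Python 3.11.15, NumPy 2.4.6, pandas 2.3.3, SciPy 1.17.1, statsmodels 0.14.6 and matplotlib 3.10.9 were used.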

Additional observations from a re-analysis of the deposited data

How the results depend on the processing

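No paired analysis was possible because each condition has 1 array. Over the alternatives, 7 members were called lower by the rule used above, 11 with no filter and 2 with a filter at the 75th percentile of all values. The count was 8 after loess removal, 7 after quantile normalization, and 10 of 53 genes with shared probesets included. The 1.5-fold threshold called 10 lower, and 1 higher where 2-fold called 0. Shares of all genes called with the 75th percentile filter or at 1.5-fold are not at hand, so those counts stand without a background. Restricting to fewer genes left 16 of 21 noncoding members negative with the median filter, against 55.5% of all genes that passed it. With the filter at the 75th percentile 4 of 5 were negative, and their median difference was -0.83. Both filters use the higher of both values, so some members passed through their no doxycycline value alone. With the median filter these were Rian, Mir370, Mir323, Mir329, Mir494, Mir382, Mir485 and Mir377. With the other filter they were Meg3 and Mir134. The filtered counts are therefore no check of direction. With 32 added to linear values, which shrinks differences of dim probesets by construction, the noncoding median was -0.34, the median of the 30 microRNAs from Mir379 onward -0.40 and the protein-coding median 0.48. Of the 11 members at least 2-fold lower, 7 stayed so with this addition (Mir323, Mir379, Mir411 and Mir300 did not), and called members numbered 6. After loess removal or quantile normalization, 11 stayed so, and the sign of the difference was the same for 48 of 48 members. Adding 32 cannot change a sign. Use of the brightest probeset cannot change any member's value, since each has 1 probeset. Between 2 probesets of a gene, differences varied with an SD of 0.19 over 551 genes, which is no error between cultures. Dim signal limits the 26 members below the filter.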

Other observations

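The identifiers of the domain's probesets, apart from that of Rtl1, rise along the chromosome in 45 of 46 steps. Between those of Mir370 and Mir379 lie 9 probesets that the platform annotation does not list, and no gene was assigned to them. Their levels ran from 4.43 to 8.33 in the plus doxycycline array and from 5.17 to 9.86 in the no doxycycline array. Their differences ran from -1.98 to -0.47 with a median of -1.33, and 7 of 9 were at least 2-fold lower with no filter. That share was 0.472% over all genes with no filter, and the share over all probesets is not at hand. Only the order of identifiers places these 9 near the domain, so they are not counted as members. One pair of these probesets had identical values in both arrays, and both of the pair are counted among the 9.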
